A study of Mus musculus with 8 samples.

Results

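Leptin and 9 further genes of fat cells were followed in belly skin of mice that carry the human protein hurpin and of wildtype mice. The genes were Lep, Adipoq, Retn, Cfd, Rbp4, Lpl, Pparg, Fabp4, Plin1 and Cidec, and every array probe set annotated to exactly 1 of these symbols was taken. That gave 12 probe sets for 8 of the 10 genes, among 45037 probe sets on the array that are not controls. Cfd and Plin1 had no such probe set and are not analysed here. The 10 genes were put together with earlier results of the transgenic and wildtype comparison known, so they were in effect selected on their transgenic minus wildtype values, and that comparison is only described for them. Standard errors and intervals are given for it as measures of spread, with no p-value. The further gene lists below were also chosen with earlier results of these data known, so their p-values are no independent check.

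RNA had been prepared from skin of the belly of 8-month-old animals and hybridised to oligonucleotide arrays, 1 animal per array except that wildtype 29 was measured on 2 arrays. The transgenic group held 4 mice with the hurpin transgene, females 7 and 84 and males 11 and 17. The wildtype group held 3 mice without it, female 29 and males 26 and 28. Hurpin, or SERPINB13, is a serpin of human skin that inhibits the protease cathepsin L. The labels name neither the promoter that drives the transgene nor the strain, and nothing in them says that littermates were used.

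White adipocytes lie under the dermis of mouse skin, where the layer of dermal fat thickens and thins with the hair cycle. They store triglyceride in 1 large droplet and secrete hormones, of which leptin reports the size of the fat stores to the brain and adiponectin acts on liver and muscle. The nuclear receptor PPARG, together with C/EBP factors, switches on most genes of the mature cell. In whole skin a lower signal can come from fewer adipocytes or from less RNA in each, and these cannot be told apart.

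Promoter windows from RefSeq (GRCm38.p6, 250 bases before to 50 after a transcript start) are shown for 3 of the secreted products. Lep had the largest difference between the groups, Adipoq is a hormone of the same cell with a much smaller one, and Rbp4 differed most after Lep. Capitals mark letters that match TTNNGNAA, the core bound by C/EBP factors, CCAAT, or the TATA box TATAAA, each searched on both strands.

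The Lep window lies at chr6:29059971-29060270 on the plus strand, and its capitals are a C/EBP match that reads on both strands.
Lep: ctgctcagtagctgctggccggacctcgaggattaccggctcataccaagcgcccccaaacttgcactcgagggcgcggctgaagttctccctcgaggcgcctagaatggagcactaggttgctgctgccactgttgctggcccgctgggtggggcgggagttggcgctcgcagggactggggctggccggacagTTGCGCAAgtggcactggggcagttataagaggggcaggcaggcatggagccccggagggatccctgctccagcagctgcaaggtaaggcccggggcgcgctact

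The Adipoq window lies at chr16:23146286-23146585 on the plus strand, with 1 C/EBP match and 3 CCAAT matches.
Adipoq: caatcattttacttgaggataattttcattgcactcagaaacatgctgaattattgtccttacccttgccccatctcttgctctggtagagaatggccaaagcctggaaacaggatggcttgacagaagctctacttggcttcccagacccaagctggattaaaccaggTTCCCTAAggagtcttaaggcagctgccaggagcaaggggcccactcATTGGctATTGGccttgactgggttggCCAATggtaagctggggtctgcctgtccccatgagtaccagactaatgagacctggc

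The Rbp4 window lies at chr19:38124762-38125061 on the minus strand, with C/EBP matches at 2 places and a TATA box match.
Rbp4: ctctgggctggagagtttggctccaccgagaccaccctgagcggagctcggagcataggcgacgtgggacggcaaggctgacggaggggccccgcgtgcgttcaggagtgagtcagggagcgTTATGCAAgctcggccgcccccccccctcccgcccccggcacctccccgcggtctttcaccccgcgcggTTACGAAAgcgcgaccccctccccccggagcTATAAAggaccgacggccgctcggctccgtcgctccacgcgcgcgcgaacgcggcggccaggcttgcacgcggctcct

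The C/EBP match of Lep spans positions -55 to -48, counted from the start site at 1. RefSeq held 12 windows for 8 of the 10 genes, and the windows of Rbp4, Pparg and Cidec are several per gene. C/EBP letters were in 8 of the 12, and in 40.7% of all 32851 windows of the same length. CCAAT was in 4 of the 12 against 37.4% of all, and TATAAA in 2 against 13.6%. The repeat of AGGTCA spaced by 1 base, to which PPARG binds with its partner RXR, was in 0 of the 12 and in 0.0396% of all windows. These counts describe letters in a short window and say nothing on whether a factor binds.

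Levels are given as log2 of intensity plus 21.8, a scale whose floor is 4.45. All 12 probe sets passed the filter on low values, a mean log2 of 6.45 that 27022 of the 45037 probe sets reached. The arrays also differed in a measure of RNA or labelling quality. The ratio of signal at the 3' end to that at the 5' end of Gapdh was 13.8 and 17.2 in transgenic females 7 and 84 and 1.45 and 4.68 in transgenic males 11 and 17, and 0.927 to 1.41 on the 4 wildtype arrays. Every transgenic array lay above every wildtype array, so group and this ratio cannot be fully told apart. Group differences adjusted for the log2 of the ratio are therefore descriptions only. Summed intensity was between 34785081 and 37857733 on each array. The sex labels matched the X-linked transcript Xist, at 12.84 to 13.16 in females and 6.81 to 7.10 in males.

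Fat cells were present in each skin sample by their markers. Of 28 further white adipocyte genes, 26 had a probe set and all 26 passed the filter, with list means of 9.81 to 10.47 in transgenic and 9.71 to 10.44 in wildtype animals. Ucp1, which defines brown adipocytes, measured 5.18 ± 0.18 in transgenic skin and 5.21 ± 0.20 in wildtype skin (SD, n = 4 and 3), below the filter. Of 9 brown adipocyte genes with a probe set, however, 6 passed the filter. Their mean levels ran from 11.86 for Pank1 and 11.02 for Cox8b to 6.98 for Prdm16, while Zic1 and Otop1 were below it as well.

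**Figure D1:**
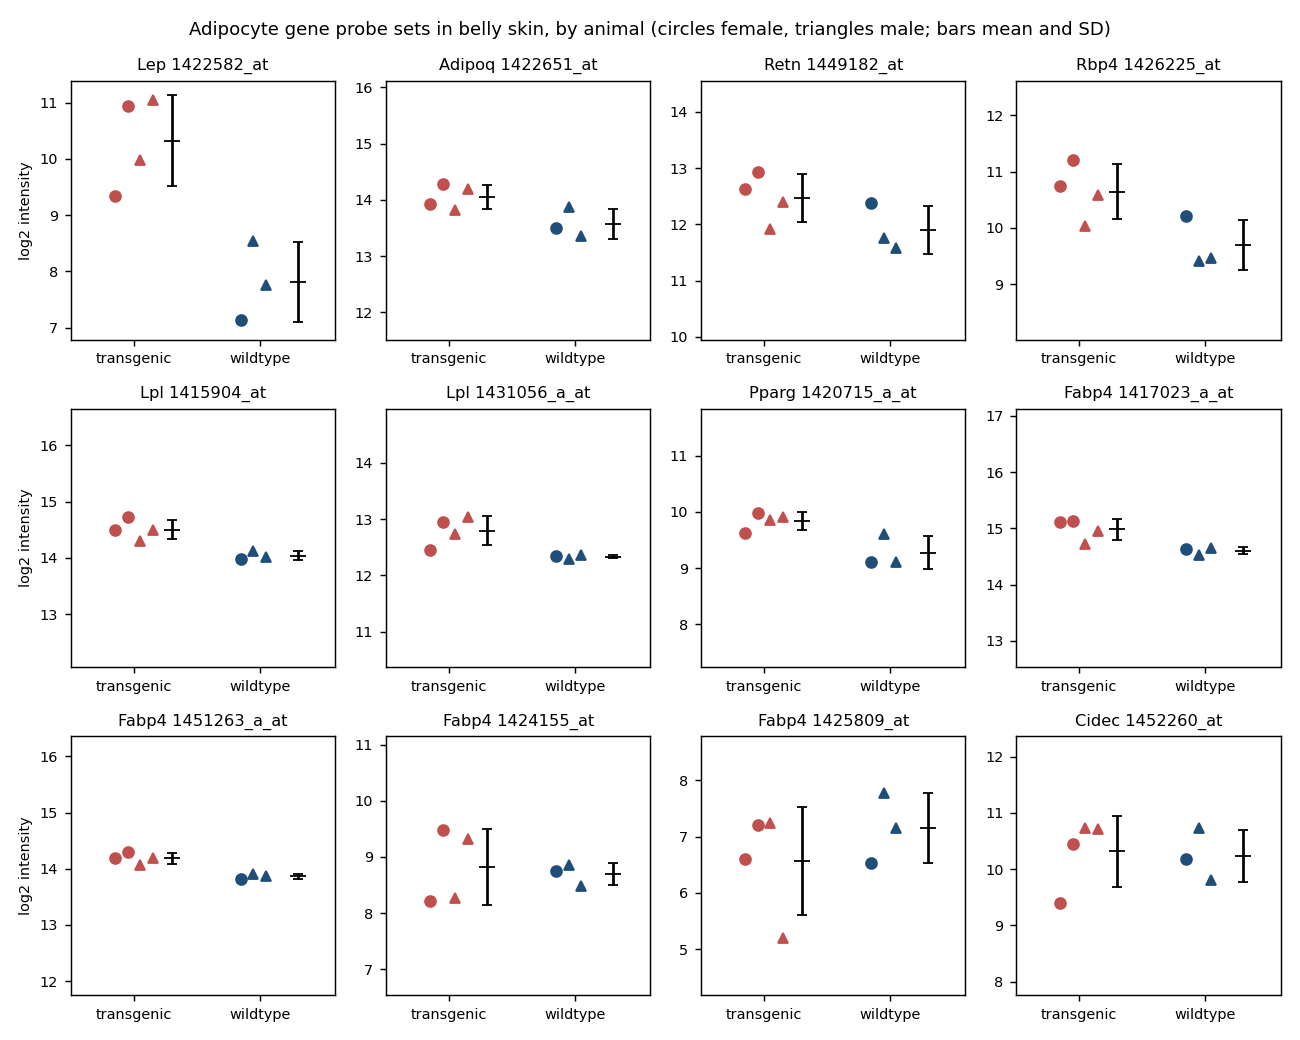
Level of each of the 12 probe sets (log2 of intensity plus 21.8, same span on each axis) in 4 transgenic and 3 wildtype animals, with bars for mean and SD. The Lep groups lie 0.79 apart at the nearest, and their means differ by 2.52. The group means of each other probe set differ by under 1, and 1 Fabp4 probe set lies lower in transgenic skin.

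Leptin was above every wildtype value in each transgenic animal. Lep (probe set 1422582_at, gene at chr6:29060221-29073876 on GRCm38.p6) measured 9.34 and 10.95 in transgenic females 7 and 84 and 9.98 and 11.04 in transgenic males 11 and 17, against 7.13 in wildtype female 29, 8.55 in wildtype male 26 and 7.75 in wildtype male 28. All 4 transgenic values were above all 3 wildtype values, and transgenic 7 was the lowest of the transgenic animals. The means were 10.33 ± 0.82 in transgenic mice and 7.81 ± 0.71 in wildtype mice (SD, n = 4 and 3). The log2 difference was 2.52 (SE 0.467, 95% confidence interval 1.45 to 3.58), or 5.72-fold. As intensity, Lep gave 625, 1952, 985 and 2085 in transgenic 7, 84, 11 and 17. It gave 139 and 99.9 on the arrays of wildtype 29, 352 in wildtype 26 and 194 in wildtype 28.

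Set against probe sets of like level, Lep also varied most of the 12. Its SD within groups was 0.776, and 3.72% of the 4811 other probe sets within 0.5 of its mean level had a larger one. The arrays of wildtype 29 differed by 0.40 in Lep, where the median absolute difference of those 4811 probe sets was 0.154. The group difference in Lep was 2.18 to 2.88 with an animal left out, 2.45 after adjusting for the log2 Gapdh ratio and 2.70 without transgenic 7 and 84. Since that ratio was higher in every transgenic animal, the adjusted value cannot separate group from RNA or labelling quality.

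The other hormones and carriers secreted by fat cells lay higher in transgenic skin by smaller amounts, with groups that overlapped. Adipoq (1422651_at, chr16:23146536-23157968), which encodes adiponectin, measured 13.93 and 14.28 in transgenic females 7 and 84 and 13.82 and 14.20 in transgenic males 11 and 17, against 13.49 in wildtype female 29 and 13.87 and 13.35 in wildtype males 26 and 28. Wildtype 26 stood between transgenic 11 and transgenic 7. The log2 difference was 0.49 (SE 0.168, interval 0.11 to 0.87), and it was 0.28 after adjusting for the log2 Gapdh ratio.

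Retn (1449182_at, chr8:3655770-3659818), which encodes resistin, a hormone of adipocytes in the mouse, measured 12.63 and 12.93 in transgenic females 7 and 84 and 11.92 and 12.39 in transgenic males 11 and 17. In wildtype skin it measured 12.38 in female 29 and 11.75 and 11.57 in males 26 and 28. Wildtype female 29 lay above transgenic male 11 and just below transgenic male 17. The log2 difference was 0.57 (SE 0.268, interval -0.04 to 1.18), and it was 0.26 without transgenic 7 and 84, the animals with the highest Gapdh ratios, and -0.08 after adjusting for the log2 of that ratio.

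Rbp4 (1426225_at, chr19:38116620-38125321), the carrier of retinol in blood, measured 10.75 and 11.21 in transgenic females 7 and 84 and 10.03 and 10.58 in transgenic males 11 and 17. In wildtype skin it measured 10.22 in female 29 and 9.41 and 9.46 in males 26 and 28. Within each sex every transgenic animal of Rbp4 lay above every wildtype animal, although the groups as a whole overlapped. The log2 difference was 0.95 (SE 0.300, interval 0.27 to 1.63), against 0.61 without transgenic 7 and 84 and 0.23 after adjusting for the log2 Gapdh ratio.

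Lipoprotein lipase (Lpl, chr8:68880555-68906932), which frees fatty acids from circulating triglyceride, was read by 2 probe sets that gave nearly the same difference. The brighter Lpl probe set (1415904_at) measured 14.49, 14.72, 14.30 and 14.50 in transgenic 7, 84, 11 and 17, against 13.98, 14.13 and 14.01 in wildtype 29, 26 and 28. The other Lpl probe set (1431056_a_at) measured 12.46, 12.94, 12.74 and 13.04 in transgenic 7, 84, 11 and 17, against 12.35, 12.29 and 12.35 in wildtype 29, 26 and 28. Both separated the transgenic from the wildtype animals, by 0.17 and 0.11 at the nearest. The log2 differences of Lpl were 0.46 (SE 0.124) and 0.46 (SE 0.155), and after adjusting for the log2 Gapdh ratio they were 0.23 and 0.51.

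Pparg (1420715_a_at, chr6:115360879-115490404), the receptor at the head of the adipocyte programme, measured 9.62, 9.97, 9.85 and 9.92 in transgenic 7, 84, 11 and 17. In wildtype 29, 26 and 28 it measured 9.11, 9.61 and 9.10. The groups did not overlap, but transgenic 7 and wildtype 26 were only 0.0031 apart. The log2 difference of Pparg was 0.56 (SE 0.183, interval 0.15 to 0.98).

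Fabp4 (chr3:10204342-10208616), the fatty acid carrier of the adipocyte cytoplasm, was read by 4 probe sets that did not give the same difference. The brightest (1417023_a_at) measured 15.12, 15.13, 14.73 and 14.95 in transgenic 7, 84, 11 and 17, against 14.64, 14.53 and 14.64 in wildtype 29, 26 and 28. The next Fabp4 probe set (1451263_a_at) measured 14.19, 14.30, 14.06 and 14.19 in transgenic 7, 84, 11 and 17, against 13.81, 13.91 and 13.87 in wildtype 29, 26 and 28. In both probe sets every transgenic animal was above every wildtype animal. Their log2 differences were 0.38 (SE 0.124) and 0.33 (SE 0.106), and 0.09 and 0.19 after adjusting for the log2 Gapdh ratio.

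The dimmer Fabp4 probe sets showed no such order. The third (1424155_at) averaged 8.82 ± 0.67 in transgenic mice and 8.69 ± 0.19 in wildtype mice, and the fourth (1425809_at) averaged 6.57 ± 0.96 and 7.16 ± 0.62 (SD, n = 4 and 3). The log2 differences were 0.13 (interval -0.64 to 0.90) and -0.59 (interval -1.80 to 0.62). In the fourth, transgenic 17 stood at 5.20, near the floor of the scale, and the difference was -0.13 without that animal. The third was -0.09 without transgenic 84, -0.04 without transgenic 17 and -0.26 after adjusting for the log2 Gapdh ratio.

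Cidec (1452260_at, chr6:113424634-113435760), a lipid droplet protein that helps droplets fuse, gave the smallest difference. It measured 9.40, 10.44, 10.72 and 10.72 in transgenic 7, 84, 11 and 17, against 10.18, 10.73 and 9.81 in wildtype 29, 26 and 28. Transgenic 7 was below all wildtype animals, and wildtype 26 was above all transgenic animals. The log2 difference of Cidec was 0.08 (SE 0.351, interval -0.71 to 0.88). It ran from -0.13 without wildtype 28 to 0.39 without transgenic 7, was -0.05 without transgenic 11 or 17, and was 0.65 after adjusting for the log2 Gapdh ratio.

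**Figure D2:**
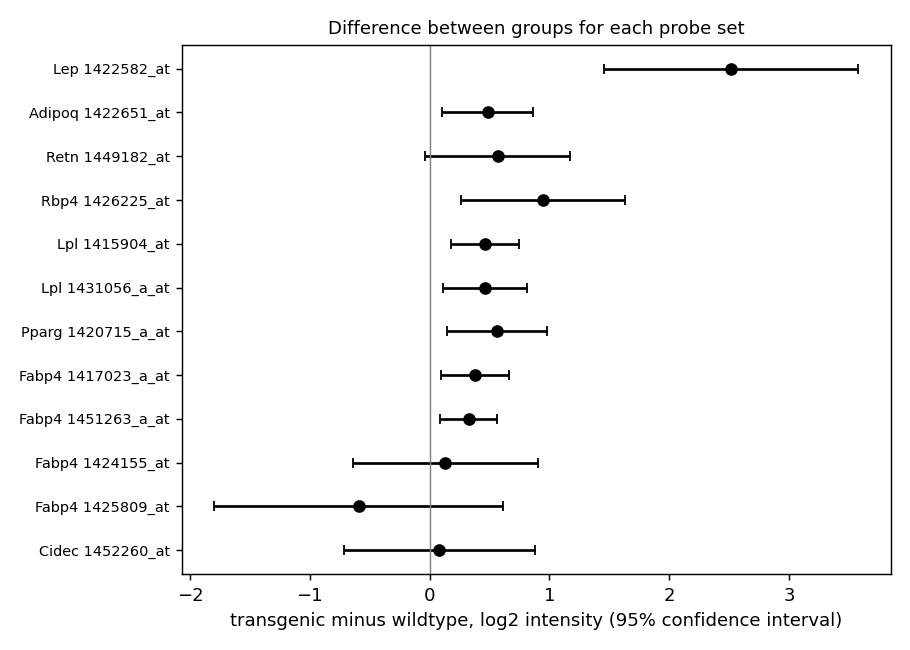
Difference between transgenic and wildtype animals in log2 intensity for each probe set, with its 95% confidence interval from limma. Lep stands at 2.52, the next highest probe set, Rbp4, at 0.95, and the dimmest Fabp4 probe set at -0.59.

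Of the 12 probe sets, 11 had a difference above 0, as did 50.2% of the 27022 probe sets tested. The median was 0.46 over the 12 and 0.0012 over all. In 6 of the 12 the transgenic animals all lay above the wildtype animals, which was so for 4.58% of all probe sets, and in 0 all lay below (11.3% of all in either direction). Because this comparison guided the choice of genes, these counts are a description only. With 7 animals, and no statement on how they were bred, the spread measured is that between these mice.

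In each transgenic animal Lep deviated more than the mean of the 7 other chosen genes. Each gene was set against its own wildtype mean, with the brightest probe set per gene. Lep deviated by 1.53, 3.14, 2.17 and 3.23 in transgenic 7, 84, 11 and 17, while the mean of the 7 other genes deviated by 0.37, 0.77, 0.29 and 0.56. In wildtype 29, 26 and 28, Lep deviated by -0.68, 0.74 and -0.06 and the other genes by 0.10, 0.10 and -0.20. The excess of Lep over the others was 1.16 to 2.67 in the transgenic animals, with 2.67 in transgenic 17, and -0.78 to 0.64 in the wildtype animals. The wildtype values centre on 0 by construction. The transgenic values restate the group differences that guided the choice of genes, so they are a description only. The order of the transgenic animals was not the same in both measures, since transgenic 17 was highest in Lep and transgenic 84 in the others.

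**Figure D3:**
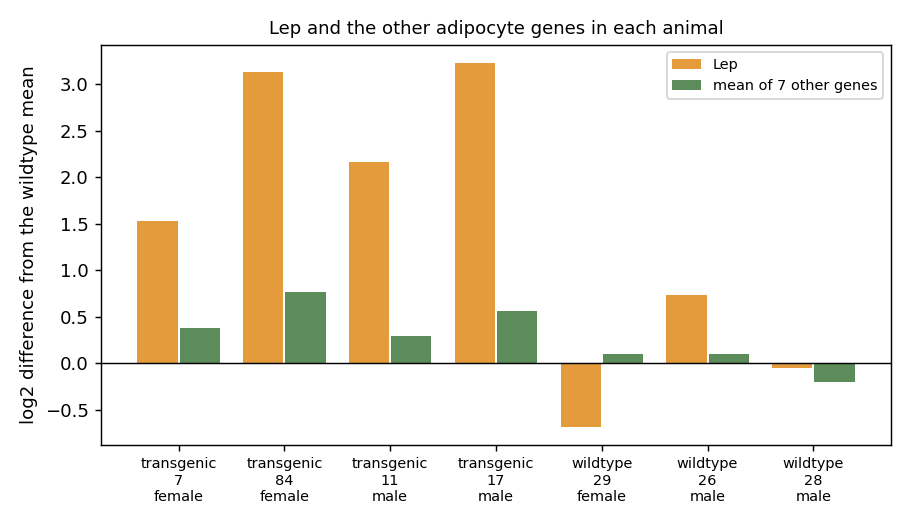
Log2 deviation from the wildtype mean in each animal, for Lep and for the mean of the 7 other genes. The Lep bar is the taller one in each transgenic animal, at 1.53 to 3.23 against 0.29 to 0.77.

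Probe sets of other genes also followed Lep closely across the 7 animals. Among 23261 probe sets with 1 symbol, those with the highest Pearson correlation to Lep were Cisd2 (0.995), Mmd (0.985), Prkar2b (0.984), Srebf1 (0.983) and Fkbp3 (0.981). Srebf1 is a transcription factor of fatty acid synthesis and Prkar2b a regulatory subunit of protein kinase A. Their log2 differences between the groups ran from 0.26 for Fkbp3 to 0.76 for Mmd, well below that of Lep. In all, 199 probe sets had a correlation above 0.9 with Lep, and 441 had one with Adipoq, for which the highest were Sgcb (0.994), Trim23 (0.992), Clic5 (0.986), Tbc1d24 (0.982) and Ube2e2 (0.981). The named genes were picked as the highest of 23261 correlations over 7 points. These points hold both groups and share arrays between genes, so the values are a description.

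The comparison of the sexes was not used to choose the genes and was tested with group as a term. Retn and Rbp4 were higher in females of both groups by similar amounts, without passing the threshold. Retn averaged 12.65 ± 0.27 in females and 11.91 ± 0.35 in males (SD, n = 3 and 4), and the difference adjusted for group was 0.66 (SE 0.156, interval 0.30 to 1.02, limma adjusted p = 0.239). Within transgenic animals females were 0.62 higher in Retn, and within wildtype animals female 29 was 0.73 above the males. Rbp4 averaged 10.73 ± 0.50 in females and 9.87 ± 0.55 in males, with an adjusted difference of 0.72 (SE 0.188, interval 0.28 to 1.15, limma adjusted p = 0.292). Females were 0.67 higher in Rbp4 among transgenic animals and 0.78 higher among wildtype animals. The order held in each group for every animal, but the sexes overlapped once the groups were pooled. With groups pooled, 0 of the 12 probe sets separated the sexes, against 4.16% of all with females higher and 9.83% in either direction.

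Lep had a negative female minus male difference whose interval included 0. It averaged 9.14 ± 1.92 in females and 9.33 ± 1.47 in males, and the difference adjusted for group was -0.63 (SE 0.438, interval -1.63 to 0.38, limma adjusted p = 0.62). Cidec had a female minus male difference of -0.52 (SE 0.319, limma adjusted p = 0.575). The other 8 probe sets lay between -0.15 and 0.19. Of the 12, limma called 0 between the sexes, against 0.226% of all probe sets, and 2 had an unadjusted p under 0.05 with females higher, against 3.57% of all and 10.9% in either direction.

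Markers of other structures are given for the same sexes. The median female minus male difference was 0.98 over mammary genes and 2.95 over hair shaft keratins, beside -0.01 over all genes. The other cell lists lay below 0, at -0.29 for white adipocytes, -0.57 for macrophages and -0.50 for sebocytes. They were -0.24 for progenitors and fibroblasts, -0.18 for brown adipocytes and -0.10 for skeletal muscle. Of 26 white adipocyte markers, 0 were higher and 6 lower in females at unadjusted limma p under 0.05, against 650 and 954 of all. The 6 measured genes of mammary epithelium, of 14 with a probe set, had means of 8.01 and 8.82 in transgenic females and 7.14 and 7.25 in transgenic males, and of 8.03 in the wildtype female and 6.68 and 7.86 in the wildtype males. The milk protein genes Csn1s1, Csn2, Lalba and Glycam1 were below the filter, and Csn3 and Wap passed it. Hair shaft keratins had list means of 13.14 and 13.11 in transgenic females 7 and 84 and 12.32 and 9.45 in transgenic males 11 and 17, with 13.84 in wildtype female 29 and 6.68 and 13.70 in wildtype males 26 and 28. Their part in the sex differences was not tested, except that adjusting for the hair keratin mean gave 0.78 for Retn and 0.77 for Rbp4. The transgenic females also had the highest Gapdh ratios, and adjusting for the log2 of that ratio gave 0.52 for Retn and 0.55 for Rbp4.

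**Figure D4:**
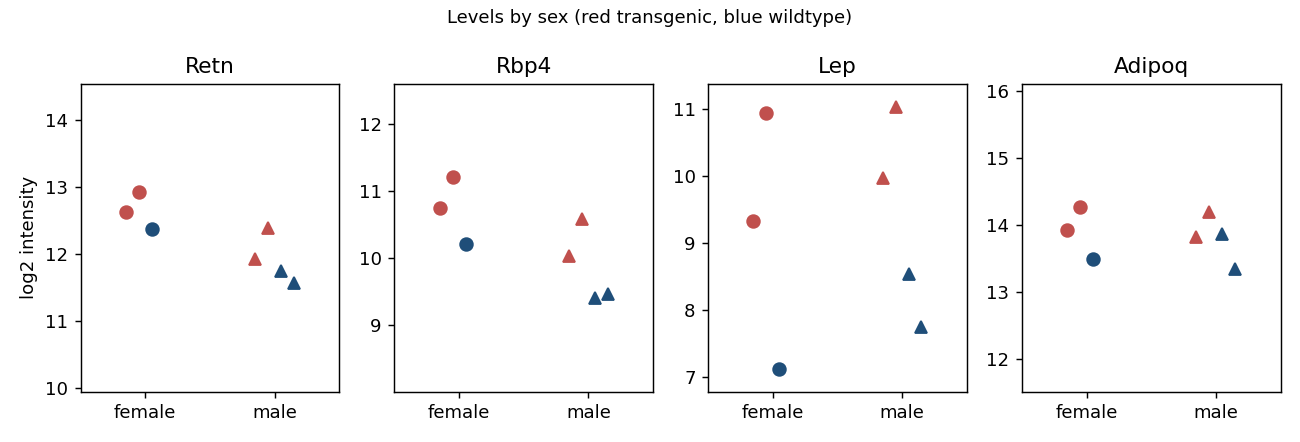
Level (log2 of intensity plus 21.8) of Retn, Rbp4, Lep and Adipoq in 3 females and 4 males, transgenic in red and wildtype in blue. In Retn and Rbp4 females lie above males within each colour, while Lep is split by group instead.

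Whether the group difference itself depends on sex was tested with the product of both terms, and limma called 0 of the 12 probe sets and 0% of all, with 0 of the 12 and 2.86% of all at an unadjusted p under 0.05. For Lep the difference between the sexes in the group effect was 0.66 (SE 0.927, limma adjusted p = 0.9998). A single wildtype female carries this test.

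None of the measured receptors and partners of the adipocyte products was called between the groups. Of 25 such genes 20 had a probe set and 16 were measured, 6 of them above 0, with a median log2 difference of -0.12 beside 0.05 over all 13559 genes. limma called 0 of the 16 and 0 of all 13559. Unadjusted limma p-values under 0.05 were found for 0 higher and 1 lower gene of the 16, against 596 and 624 of all. Lepr, the leptin receptor, averaged 9.19 ± 0.59 in transgenic mice and 8.87 ± 0.51 in wildtype mice (SD, n = 4 and 3, log2 difference 0.32, SE 0.352). The adiponectin receptors Adipor1 and Adipor2 gave 0.23 and -0.09, and Cdh13, the cadherin that binds adiponectin, gave 0.50. Other probe sets past the filter gave -1.48 to -0.18 for Cdh13, opposite in sign to its brightest one, and -0.91 for Adipor2. Stra6, a receptor for the retinol carrier, gave -1.11 (SE 0.648).

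Around lipoprotein lipase, Gpihbp1, which anchors the enzyme on capillaries, gave -0.52, Angptl4, its inhibitor, -0.16 and Lmf1, its maturation factor, -0.17. The lipases of the fat droplet, Pnpla2 and Lipe, gave -0.41 and -0.88, and Abhd5, the activator of the Pnpla2 lipase, gave 0.23, with -0.74 in another probe set past the filter. Lipe, the hormone-sensitive lipase, averaged 8.46 ± 0.68 in transgenic mice and 9.34 ± 0.22 in wildtype mice (limma adjusted p = 0.398). Rxra and Rxrb, which pair with PPARG, gave -0.16 and -0.27, and its coactivator Ncoa1 gave -0.01. Of the complement genes that act with the adipocyte protease factor D, Cfb and Cfp gave 0.52 and 0.38, with -0.07 in the other Cfp probe set.

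The wider adipocyte programme gave no call in either direction. Over white adipocyte markers and 7 pathway lists together, 108 genes without any of the 10 were measured, and limma called 0, against 0 of all 13559 genes with 1 probe set each. Over all 27022 probe sets, limma called 0.0148% between the groups, 0.0074% with transgenic higher, and at an unadjusted p under 0.05 the shares were 11.7% and 3.77%. At an unadjusted p under 0.05, 12 were higher and 4 lower in transgenic skin, against 596 and 624 of all. Between the sexes, 4 were higher and 15 lower in females at that level, against 650 and 954 of all. Their median difference was 0.11, with 58.3% above 0, beside 0.05 and 56.3% for all genes. It was -0.015 when all probe sets of a gene were averaged, 0.01 without wildtype 28, 0.03 without wildtype 29 and 0.22 without wildtype 26.

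White adipocyte markers had a median of 0.17 over 26 genes, 15 above 0. Their most abundant members were Cav1, which forms caveolae, at 0.46, the fatty acid transporter Cd36 at 0.49, Itih5 at 0.73 and Apod at -0.50. The 3 probe sets of Cd36 gave 0.49 to 0.67, while the other probe sets of Itih5 gave -0.16 and 0.15. None of these genes passed the test.

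Genes of triglyceride synthesis had a median of 0.19 over 10 genes, 6 above 0. Lpin1, a phosphatidate phosphatase that makes diacylglycerol, averaged 10.80 ± 0.49 in transgenic mice and 9.32 ± 0.36 in wildtype mice (SD, n = 4 and 3, log2 difference 1.49, SE 0.284, limma adjusted p = 0.225). Its groups did not overlap, and its other probe set gave 0.78. Gpam, the first acyltransferase of the pathway, gave 0.33 and Dgat2, the last, 0.67, but their other probe sets gave -1.07 and -0.41. Agpat2 gave 0.05.

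Genes of fatty acid synthesis had a median of 0.19 over 12 genes, with Scd1 at 0.31, Elovl6 at 0.47, Scd2 at 0.20 and Fasn at 0.06. Lipolysis and lipid uptake had a median of 0.10 over 13 genes, with Fabp5 at 0.01, Mgll at -0.18, Cd36 at 0.49 and Acsl4 at 0.57. Adipogenic transcription factors had a median of 0.05 over 18 genes, with Rora at 0.24, Nr3c1 at 0.17, Cebpb at -0.15 and Gata3 at -0.13. Insulin and glucose uptake genes had a median of 0.08 over 8, with Irs1 at -0.004, Foxo1 at 0.17, Pik3r1 at 0.22 and Akt2 at -0.56. None of the named genes of these 4 lists passed.

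The sign of many of these genes depended on the probe set. Among other probe sets past the filter, those of Scd2 gave -1.49 and -0.38, and the lowest was -0.67 for Elovl6, -0.46 for Fabp5 and -0.11 for Acsl4. The lowest was -0.85 for Rora, -1.26 for Nr3c1, -0.36 for Foxo1 and -0.47 for Pik3r1. The brightest probe set of each of these genes was above 0. The other probe set of Cebpb gave -1.48 and the lowest of Mgll -1.13, on the same side as their brightest ones.

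Other factors secreted by fat had a median of 0.07 over 20 genes, 11 above 0. Grn, Cxcl12, Hp and Rarres2, the most abundant, gave 0.10, 0.11, -0.22 and 0.66. Other probe sets past the filter gave -0.06 and 0.10 for Grn, -0.0045 for Cxcl12, and 0.20 and 0.46 for Rarres2. Between the sexes, limma called 5 of all 13559 genes higher and 35 lower in females. C1qtnf3, a secreted relative of adiponectin, was the only gene of these lists called between the sexes. It measured 9.32 and 8.84 in transgenic females 7 and 84 and 11.03 and 12.30 in transgenic males 11 and 17, against 7.28 in wildtype female 29 and 11.96 and 11.05 in wildtype males 26 and 28. Every female was below every male, and females were lower by 3.24 on the log2 scale (female minus male -3.24, SE 0.439, limma adjusted p = 0.0365). The call was lost in 7 of 21 alternative settings, among them without transgenic 7 (adjusted p = 0.105), transgenic 84 (0.194), transgenic 17 (0.225) or wildtype 29 (0.147), with a range from 0.0072 to 0.544.

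**Figure D5:**
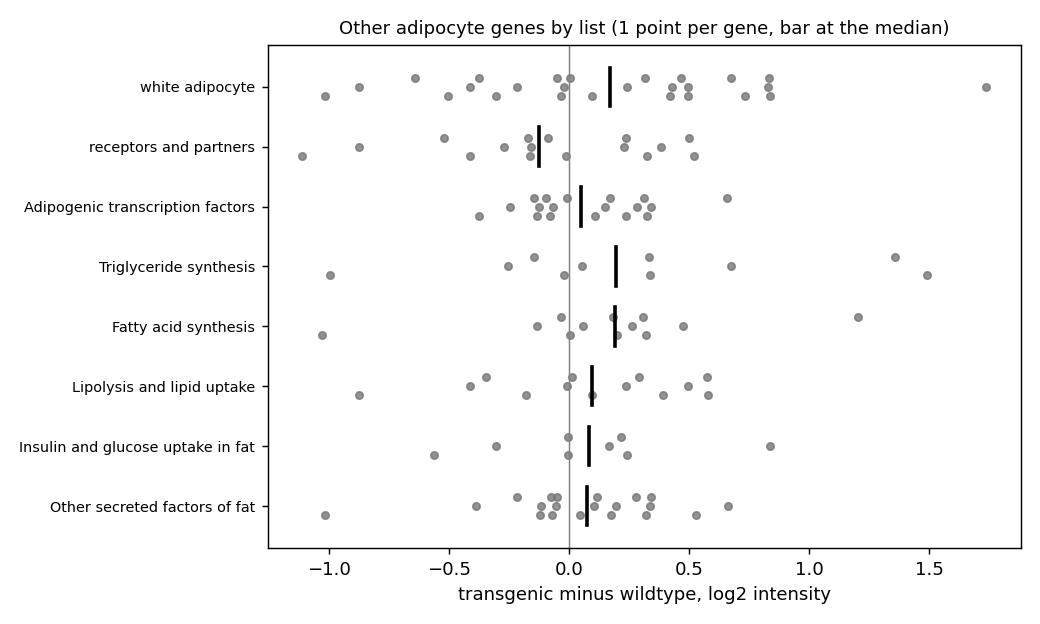
Transgenic minus wildtype difference in log2 intensity for each measured gene of the white adipocyte markers and of 7 pathway lists, brightest probe set per gene, with a bar at the median of each list. The medians lie between -0.12 and 0.19, and single genes between -1.11 and 1.74.

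Markers of other cells of the skin are given for the same animals. Skeletal muscle genes had list means of 12.78 to 13.40 in transgenic and 12.46 to 13.11 in wildtype animals, and macrophage genes 10.43 to 11.08 and 10.33 to 11.47. Genes of adipocyte progenitors and fibroblasts had means of 11.24 to 11.54 in transgenic and 10.93 to 11.71 in wildtype animals, and sebocyte genes 11.42 to 12.04 and 11.46 to 11.95. The list means of the groups overlapped. Of 16 skeletal muscle genes, 14 had a difference above 0, beside 56.3% of all genes. Their median was 0.23. At an unadjusted limma p under 0.05, 3 of them were higher and 0 lower, against 596 and 624 of all 13559 genes. Of 10 hair keratins 8 were above 0, with a median of 0.64. The median was 0.41 over the 6 mammary genes, 0.25 over the 6 measured brown adipocyte genes, 0.07 over 12 macrophage genes, 0.09 over the 10 progenitor and fibroblast genes and 0.07 over the 10 sebocyte genes. limma called 0 genes of these lists and 0 of all 13559. The part of these lists in the differences of the adipocyte genes was not tested. Adjusting for the hair keratin mean gave group differences of 2.62 for Lep, 0.91 for Rbp4 and 0.54 for Retn. The median over the 12 chosen probe sets was then 0.47, beside 0.46 without adjustment. It was 0.23 after adjusting for the log2 Gapdh ratio, the lowest of the 22 alternative settings.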

How the data were processed

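Belly skin of 4 transgenic and 3 wildtype mice was measured on 8 arrays. Each probe set has an intensity that the authors deposited on a linear scale. The submitters' processing notes name MAS5, with a version not given in the sources used here. Once 2% of values at each end were dropped, the array means were 499.464 to 500.003. The platform's annotation gave 1 symbol to 34945 probe sets, several to 932 and none to 9160, and 64 controls were set aside.

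A pseudocount of 21.8, the 20th percentile, was added to each intensity before taking log2, with the arrays of wildtype 29 averaged and without further normalization. Probe sets under the 40th percentile of mean log2 (6.45) were left out. limma 3.58.1 under R 4.3.3 tested groups and sexes (lmFit, eBayes with a trend, 2-sided, Benjamini-Hochberg over 27022 probe sets). Animals rather than probe sets are the replicates, and their number limits the precision. The fits were tested on simulated data.

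The members and lists were chosen with earlier results of these data known. Named genes are all members, the 4 most abundant genes of each adipocyte list, any called gene, all measured receptors and partners, and 5 probe sets most like Lep and Adipoq. For list genes with more than 1 probe set, the brightest stands for the gene, and a gene on several lists counts once in the joint count. Alternatives covered normalization, pseudocount, filter, empirical Bayes settings, arrays of wildtype 29, animals left out and covariates. Figures used Python 3.11.15 and matplotlib 3.10.9.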

Additional observations from a re-analysis of the deposited data

How the results depend on the processing

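The transgenic minus wildtype difference of Lep lay between 2.18 and 2.88 in all 22 alternative settings. Cyclic loess normalization moved Lpl (1415904_at) to 0.32 and the bright Fabp4 probe sets to 0.22 and 0.19. Adjusting for the log2 Gapdh ratio moved Retn, Rbp4, Lpl, Fabp4 and Cidec as given above; the cause was not tested. The female minus male difference ran from 0.52 to 0.79 for Retn (adjusted p from 0.0795 to 0.9998) and from 0.55 to 0.87 for Rbp4 (0.103 to 0.9998). Over the other 8 probe sets its sign turned in 31 of 167 values, none called. C1qtnf3 was no longer called with the filter at the 60th percentile (adjusted p = 0.051), without a trend (0.111) or without transgenic 7 and 84 together (0.544). The number of probe sets called over the whole array was 4 between the groups and 61 between the sexes, and ran from 0 (without wildtype 28, and with the Gapdh ratio) to 269 (without transgenic 11) and from 8 to 164. No paired analysis was possible because the labels name no litter or other pairing of transgenic with wildtype animals.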

Other observations

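Single genes outside the naming rule, chosen after their values were seen, marked the ends of the adipocyte lists. Npr3, the clearance receptor for natriuretic peptides, averaged 10.50 ± 0.86 in transgenic mice and 8.77 ± 1.05 in wildtype mice (SD, n = 4 and 3, log2 difference 1.74, SE 0.558), and its other probe sets gave 0.49 and, below the filter, -0.16. Agt, which encodes angiotensinogen, averaged 7.08 ± 0.25 in transgenic mice and 8.10 ± 0.62 in wildtype mice (-1.02, SE 0.307), with groups that did not overlap. G0s2, an inhibitor of the droplet lipase Pnpla2, averaged 9.79 ± 0.24 in transgenic mice and 9.21 ± 0.11 in wildtype mice (0.58, SE 0.174). None of the 3 passed the limma test over all probe sets (adjusted p from 0.328 to 0.338).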
